A study of Mus musculus with 7 samples.

Results

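The genes of the proteasome were examined in ERα neurons of the medial preoptic area classed as responsive or not responsive to warming. They were taken as every gene symbol that starts with Psma, Psmb, Psmc, Psmd, Psme or Psmg followed by a digit, leaving out symbols that end in "ip" or mark a pseudogene. The rule found 48 of the 24062 gene symbols in the data, and 45 of them had at least 10 counts in at least 3 samples and were tested. The other 3 were Psma8, the core subunit of the testis, with 0 to 7 counts per sample, Psmb11, the core subunit of the thymic cortex, with 1 to 15 counts, and Psme2b, a copy of the activator gene Psme2, with 4 to 10 counts. The rule uses names alone and no measured value.

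The proteasome is the barrel-shaped protease that degrades proteins tagged with ubiquitin. Its core is a stack of rings, with alpha subunits (Psma) forming the gated outer rings and beta subunits (Psmb) forming the inner rings that cut peptide bonds. A regulatory particle caps the core: its base holds a ring of ATPases (Psmc) that unfold substrates, with scaffold and ubiquitin-receptor subunits, and its lid (Psmd) removes ubiquitin. Chaperones (Psmg for the core, Psmd5, Psmd9 and Psmd10 for the base) assist assembly, and activators (Psme) can open the core in place of the regulatory particle. In neurons, turnover of proteins by the proteasome takes part in synaptic plasticity and in the clearance of damaged protein.

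Cell contents were aspirated through the patch pipette from ZsGreen+ neurons in brain slices of ERα-ZsGreen reporter mice on a C57BL/6J background, aged 10 to 14 weeks, after firing had been recorded at 25 °C and again with the bath 5 °C warmer. All samples carried the reporter and all went through the warming step, and the groups differ in whether the firing rate rose past the study's cutoff on warming, for which its results and methods give different values. Firing of an NR neuron may thus have risen by less than the cutoff. Each sample holds 2 neurons of the same response, with 4 temperature-responsive (TR) and 3 non-responsive (NR) samples, and the labels do not say which mouse a neuron came from, so p-values measure the spread between these samples. A difference in a transcript can reflect RNA content or the mix of material in the pipette, and these cannot be told apart.

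Several facts of the whole series touch every result below. TR samples held 1914497 to 2814360 counts and NR samples 3309361 to 5125280, whereas 19852 to 21177 genes were detected in TR and 17818 to 19820 in NR, and neither range overlapped between the groups. Esr1, the gene of ERα, had 10 to 27 counts in each sample. The methods state that slices came from female mice, but each sample held 684 to 1150 counts of the Y-linked gene Ddx3y and 2 to 14 of Xist, in both groups alike. Markers of other cells were present throughout, with no listed marker at 0 in any sample. Summed over 5 markers each, endothelium stood at 63.6 to 189 CPM (counts scaled to the same total in every sample) in TR and 12.1 to 40.2 in NR, with 4 of 5 genes higher, and microglia at 257 to 309 in TR and 316 to 333 in NR, with 1 of 5 genes higher and 1 lower. Astrocyte markers stood at 1095 to 1223 CPM in TR and 899.6 to 1107 in NR (2 of 5 higher, 1 lower), oligodendrocyte markers at 2807 to 3588 and 2442 to 3005 (2 of 5 higher, 1 lower), and the 6 neuronal markers at 2982 to 3321 and 2779 to 3125 (1 higher, 2 lower). Over all genes tested, 15.1% were higher and 14.9% lower in TR. The part of these differences between the groups in the results below was not tested.

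Proteasome transcripts made up 0.543% to 0.588% of all counts in the TR samples and 0.605% to 0.623% in the NR samples. In edgeR's quasi-likelihood test over all 14407 tested genes (TMM scaling, Benjamini-Hochberg threshold 0.05), 17 of the 45 proteasome genes passed, or 37.8%, against 30.0% of all genes tested. Of these, 6 were higher in TR neurons (13.3%, against 15.1% of all genes) and 11 were lower (24.4%, against 14.9% of all genes). The share of members higher was therefore close to the background, and the share lower was above it. The median log2 fold change, TR over NR, was -0.06 over the members and 0.01 over all genes tested, with 15 members positive and 30 negative. By CPM, the groups did not overlap in 5 members that were higher and 17 that were lower, against 14.5% and 21.4% of all genes (35.9% in either direction). After TMM scaling these counts were 8 and 12, against 17.2% and 18.2%.

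**Figure D1:**
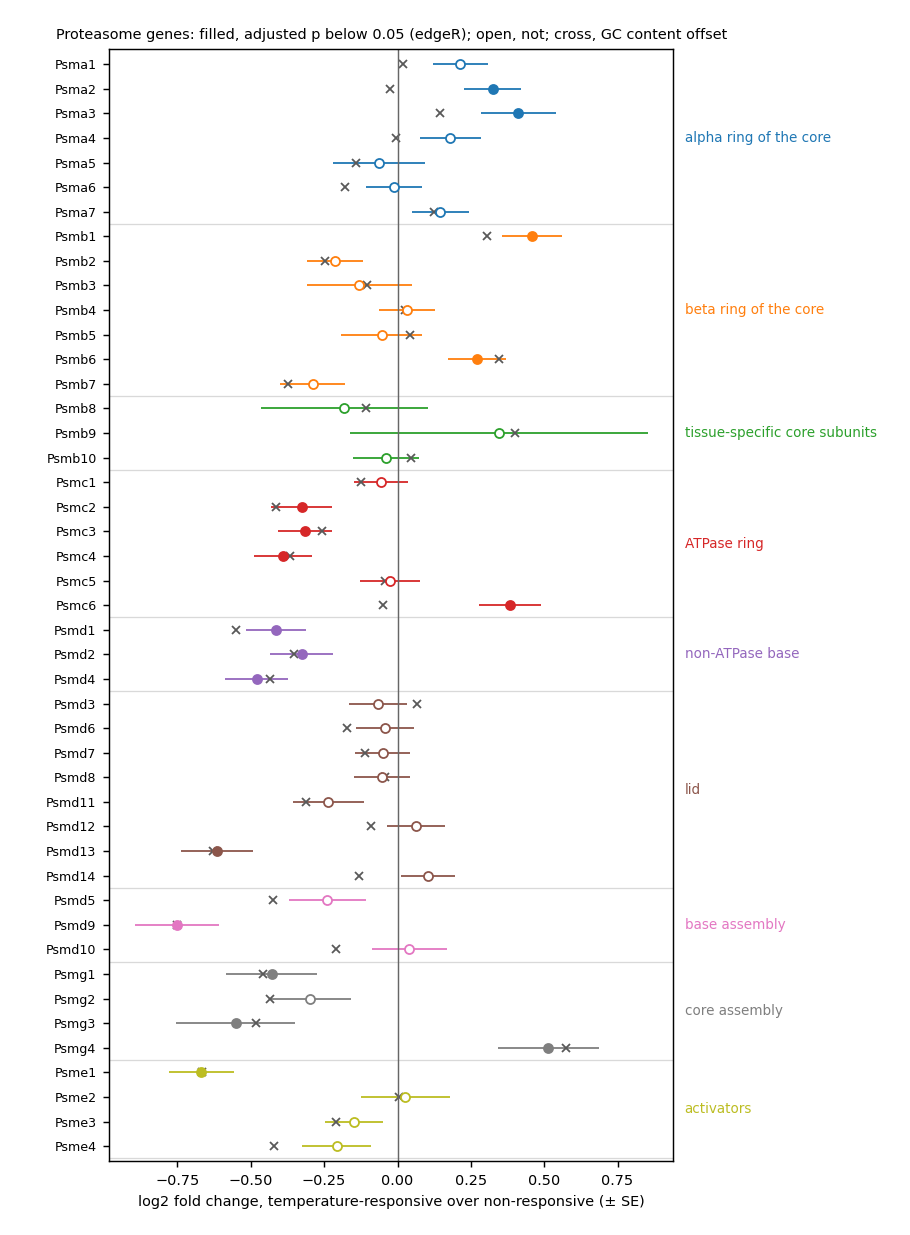
Log2 fold change of each tested proteasome gene (x axis, TR over NR, ± SE), grouped by role; filled points passed the edgeR threshold, open points did not, and crosses give the value with an offset for GC content. The 3 genes shown for the non-ATPase base all lie at -0.33 or below, and the filled points of both core rings all lie at 0.27 or above.

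The calls rest on few samples. Without NR sample 3, 1 member was higher and 7 lower. Without NR sample 2 the counts were 2 and 7, and without TR sample 2 they were 4 and 7. Of the 17 genes, 8 kept their call without NR sample 3, 9 without NR sample 2 and 11 without TR sample 2. When the number of genes detected was added as a covariate, no member passed in edgeR (5 of 45 were below 0.05 unadjusted) and 1 gene of all tested passed, so that this number and the group cannot be told apart. In the other 19 alternatives run, 7 of the 17 genes kept their call in every one: Psmb1, which was higher, and Psmc4, Psmd1, Psmd4, Psmd9, Psmd13 and Psme1, which were lower. The split of calls also moved with the scaling, to 7 higher and 7 lower with upper quartile scaling, to 3 and 13 with an offset for GC content and to 3 and 10 with an offset for transcript length. The calls over all genes moved in the same direction, from 50.3% higher to 62.1%, 37.7% and 40.6% in those fits. The other 10 of the 17 called members kept their call in 7 (Psmg3) to 16 (Psmc6) of the 20 alternatives.

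The promoters of proteasome genes were searched for motifs as a description only, with the share over all promoters beside it. RefSeq (GRCm38.p6) gave 43 promoter windows for 40 of the members, and the 250 bases before each start were searched on both strands. TGANNNNGC, the core of the antioxidant response element to which Nfe2l1 binds as a driver of proteasome genes, was found in 39.5% of the member windows and in 35.2% of all 32851 windows. CCAAT was found in 32.6% and 33.8%. The core recognised by nuclear respiratory factor 1 (GCGC, any base, then TGCGC) was found in 6 of the 43 member windows and in 3.74% of all windows. The 6 genes are shown because their calls differ, with Psma2 and Psma3 higher, Psmc4 lower, and Psma4, Psmc5 and Psmd14 not past the threshold. Each line gives 50 bases, 5′ to 3′ on the strand of the gene, with the motif in capitals.
Psma2, chr13:14613095-14613144, plus strand: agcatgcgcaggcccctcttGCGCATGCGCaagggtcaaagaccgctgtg
Psma3, chr12:70974525-70974574, plus strand: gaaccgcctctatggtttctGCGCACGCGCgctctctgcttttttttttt
Psma4, chr9:54950778-54950827, plus strand: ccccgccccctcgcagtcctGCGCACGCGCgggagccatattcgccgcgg
Psmc4, chr7:28050232-28050281, minus strand: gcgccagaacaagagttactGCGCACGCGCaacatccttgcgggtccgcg
Psmc5, chr11:106256116-106256165, plus strand: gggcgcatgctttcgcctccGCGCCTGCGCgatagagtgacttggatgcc
Psmd14, chr2:61711594-61711643, plus strand: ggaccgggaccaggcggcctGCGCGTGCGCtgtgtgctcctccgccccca
The motif starts 49 bases (Psmc5) to 169 bases (Psmc4) before the RefSeq start, and in none of the 6 did it overlap the other motifs searched. Psma3, Psma4 and Psmc4 carry the same letters, GCGCACGCGC, which match the motif on the strand opposite to the one printed. Psmd14 carries the same site read from the other strand, GCGCGTGCGC. Of these genes Psma3 was higher, Psmc4 was lower, and Psma4 and Psmd14 did not pass the threshold. A match of letters is a description and does not show binding.

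In the alpha ring, which gates the entrance to the core, 2 of 7 genes passed, against 30.0% of all genes tested. Both were higher in TR neurons, and the median log2 fold change of the ring was 0.18. Psma2, which holds the motif of nuclear respiratory factor 1, measured 223, 223, 216 and 221 CPM in TR samples 1 to 4 and 205, 178 and 169 CPM in NR samples 1 to 3. All 4 TR samples lay above the NR samples (log2 fold change 0.32 ± 0.097 SE, edgeR adjusted p = 0.0138). Psma3 measured 73.7, 67.4, 67.4 and 61.5 CPM in TR and 54.7, 52.5 and 51.6 CPM in NR, again without overlap (0.41 ± 0.128, adjusted p = 0.0176). Psma3 shares sequence with 4 near-identical annotated copies, so that its level is uncertain. The most negative value in the ring was that of Psma5, at 26.1, 34.0, 36.6 and 34.1 CPM in TR and 36.0, 36.5 and 34.5 CPM in NR, and these values overlapped (-0.06, adjusted p = 0.789). The other 4 alpha genes ranged from -0.01 (Psma6) to 0.21 (Psma1) on the log2 scale. Psma2 lost its call without NR sample 2 (adjusted p = 0.0737) or NR sample 3 (0.0963), and Psma3 without NR sample 2 (0.0620), NR sample 3 (0.0549) or TR sample 1 (0.0598). With the GC offset, the value of Psma2 was -0.02 (adjusted p = 0.88) and that of Psma3 was 0.15 (adjusted p = 0.431), and the median of the ring was -0.01.

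In the beta ring, the proteolytic part of the core, 2 of 7 genes passed, against 30.0% of all genes tested. Both were higher, and the median log2 fold change of the ring was -0.05. Psmb1 (chr17:15475021-15499751 on mm10, minus strand), a structural subunit of the ring, measured 347, 333, 324 and 314 CPM in TR and 284, 236 and 229.8 CPM in NR. Every TR sample exceeded every NR sample, and the log2 fold change was 0.46 ± 0.102 (edgeR adjusted p = 0.00197), with 0.31 under the GC offset (adjusted p = 0.0263). Psmb6, which carries the caspase-like site, measured 258, 236, 243 and 237 CPM in TR and 237, 200.4 and 195 CPM in NR. NR sample 1 fell within the TR range on this scale, though not after TMM scaling, and the fold change was 0.27 (adjusted p = 0.0417), which was lost without any of TR samples 1, 2 or 3 or NR samples 2 or 3 (adjusted p 0.0659 to 0.195). Psmb7, which carries the trypsin-like site, measured 121, 90.9, 138 and 133 CPM in TR and 157, 154 and 152 CPM in NR. The TR samples were all lower and spread more widely, and the value of -0.29 missed the threshold (adjusted p = 0.0506). It passed without TR sample 1 (0.0491) or TR sample 3 (0.0350). Psmb5, which carries the chymotrypsin-like site, measured 42.0, 37.6, 46.4 and 48.7 CPM in TR and 45.3, 49.2 and 47.7 CPM in NR, with overlap (-0.05, adjusted p = 0.802). Of the 3 catalytic genes, 1 thus passed, and the other members of the ring, Psmb2, Psmb3 and Psmb4, lay between -0.21 and 0.03.

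Psmb8, Psmb9 and Psmb10 encode the immunosubunits, which replace Psmb5, Psmb6 and Psmb7 in cells exposed to interferon and in immune cells. Psmb10 measured 103, 86.7, 129 and 117 CPM in TR and 123, 116 and 112 CPM in NR. Psmb8 measured 18.5, 13.6, 20.6 and 7.46 CPM in TR and 13.3, 24.4 and 15.2 CPM in NR. Psmb9 had only 3 to 24 counts per sample, at 3.97, 1.57, 7.60 and 4.26 CPM in TR and 1.21, 4.49 and 4.93 CPM in NR. The groups overlapped in each of these genes, and none of them passed in the main edgeR fit, DESeq2 or limma, adjusted or unadjusted (edgeR log2 fold change -0.04, -0.18 and 0.35, adjusted p = 0.823, 0.662 and 0.638 for Psmb10, Psmb8 and Psmb9). With genes detected as covariate, Psmb9 stood at 1.80 (edgeR unadjusted p = 0.0351, adjusted p = 0.312). The summed counts of the immunosubunits were 28.0% to 36.7% of those of their constitutive counterparts in TR and 31.3% to 35.8% in NR. The summed level of the 5 microglia markers was lower in every TR sample, with Csf1r lower (-0.54), P2ry12 higher (0.34) and the other 3 not past the threshold, and its part in these values was not tested.

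The ATPase ring unfolds substrates and threads them into the core. Of its 6 genes, 3 were lower in TR neurons and 1 was higher, against 14.9% and 15.1% of all genes tested. Psmc4 (chr7:28041707-28050101, minus strand), which holds the same motif, measured 123, 110.2, 131 and 138 CPM in TR and 155, 179.7 and 181 CPM in NR. It did not overlap between the groups (-0.39 ± 0.0986, edgeR adjusted p = 0.00468). Psmc3 measured 166, 155, 181 and 166 CPM in TR and 208, 213 and 228 CPM in NR, also without overlap (-0.31, adjusted p = 0.0124), and missed the threshold without NR sample 3 (0.0685). Psmc2 measured 129, 127, 147 and 145 CPM in TR and 147, 188 and 203 CPM in NR, with NR sample 1 level with TR sample 3 and the groups overlapping after TMM scaling (-0.33, adjusted p = 0.0206). Its call was lost without NR sample 2 (0.0870), NR sample 3 (0.157) or TR sample 2 (0.0689). Psmc6 ran the other way, at 319, 313, 280.3 and 262 CPM in TR and 228, 263 and 213 CPM in NR. NR sample 2 fell just inside the TR range by CPM, the log2 fold change was 0.38 ± 0.106 (adjusted p = 0.00838), and without NR sample 3 the adjusted p was 0.0719. Psmc6 has the lowest GC content of the tested members that passed, 37.0%, and its value with the GC offset was -0.05 (adjusted p = 0.744). Psmc1 and Psmc5 stood at -0.06 and -0.03.

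All 3 genes of the non-ATPase base that the name rule takes in were lower in TR neurons, against 14.9% of all genes tested. Their median log2 fold change was -0.41. Psmd1, the larger scaffold of the base, measured 204, 161, 219 and 188 CPM in TR and 253, 270.2 and 283 CPM in NR (-0.41 ± 0.101, edgeR adjusted p = 0.00375). Psmd4, a receptor for ubiquitin chains, measured 176, 122, 158 and 167 CPM in TR and 208, 242 and 231 CPM in NR (-0.48 ± 0.107, adjusted p = 0.00194). Psmd2, the scaffold that docks shuttle proteins and has a near-identical copy elsewhere, measured 99.8, 77.3, 93.8 and 102 CPM in TR and 114, 126 and 127 CPM in NR (-0.33, adjusted p = 0.024). No TR sample reached any NR sample in any of the 3 genes, and TR sample 2 was the lowest in each. The sum of the 3 genes was 442 ± 54.9 CPM (SD, n = 4) in TR and 617 ± 37.3 CPM (SD, n = 3) in NR. Psmd2 missed the threshold without TR sample 2 (0.0978), TR sample 3 (0.0580), NR sample 2 (0.0837) or NR sample 3 (0.0819), whereas Psmd1 and Psmd4 kept their calls in each fit that left out a sample. With the GC offset all 3 remained lower, with a median of -0.43.

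In the lid, which cuts ubiquitin from the substrate, 1 of 8 genes passed, against 30.0% of all genes tested. Psmd13 (chr7:140881968-140898643, plus strand), a structural subunit, measured 68.9, 55.4, 85.8 and 68.6 CPM in TR and 102, 111 and 123 CPM in NR. The groups did not overlap, and the log2 fold change was -0.62 ± 0.123 (edgeR adjusted p = 0.000887). Exons of Psmd13 overlap those of Sirt3 on the opposite strand over 10.1% of their length, and Sirt3, a mitochondrial deacetylase, had a value of -0.43 (adjusted p = 0.00624). The strand setting of the counting is not given, so reads from the shared stretch cannot be assigned to either gene with certainty. Psmd14, the deubiquitinase of the lid, measured 208, 206, 209 and 205 CPM in TR and 211, 206 and 185 CPM in NR, with overlap (0.10, adjusted p = 0.419). The remaining 6 lid genes had log2 fold changes between -0.24 (Psmd11) and 0.06 (Psmd12).

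The chaperones of assembly had the widest range of values. Psmd9 (chr5:123169413-123250131, plus strand), a chaperone of the base, measured 35.3, 34.0, 33.0 and 40.9 CPM in TR and 53.8, 62.8 and 71.5 CPM in NR. The highest TR sample stayed well under the lowest NR sample, and the log2 fold change of -0.75 ± 0.143 was the most negative of all members (edgeR adjusted p = 0.00065). Exons of Psmd9 overlap those of the annotated gene Gm26745 over 25.5% of their length. Psmd10, another chaperone of the base, measured 66.7, 61.1, 70.3 and 66.8 CPM in TR and 59.8, 80.4 and 60.8 CPM in NR, with TR inside the NR range (0.04, adjusted p = 0.84). Psmd5, also a chaperone of the base, was at -0.24 (adjusted p = 0.169).

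Among the chaperones of the core, Psmg1 and Psmg2 act as a pair, as do Psmg3 and Psmg4. Psmg4 measured 36.2, 41.8, 38.0 and 34.5 CPM in TR and 33.2, 27.3 and 22.2 CPM in NR, with every TR sample higher (0.51 ± 0.171, edgeR adjusted p = 0.0254). Psmg3 measured 19.9, 14.6, 21.7 and 21.3 CPM in TR and 20.2, 35.7 and 32.9 CPM in NR, with NR sample 1 inside the TR range (-0.55 ± 0.203, adjusted p = 0.0421). The values of the partners had opposite signs, and the count ratio of Psmg3 to Psmg4 was 0.549, 0.35, 0.571 and 0.619 in TR and 0.609, 1.31 and 1.48 in NR. The difference between the partners was not tested. Psmg1 measured 30.5, 27.2, 31.1 and 37.3 CPM in TR and 40.2, 51.3 and 41.5 CPM in NR, without overlap (-0.43, adjusted p = 0.0386), and Psmg2 was at -0.30 (adjusted p = 0.11). These calls were fragile. Psmg4 was lost without TR sample 2, NR sample 2 or NR sample 3 (adjusted p 0.0743 to 0.142), Psmg3 without TR samples 1, 2 or 4 or NR samples 2 or 3 (0.0522 to 0.211), and Psmg1 without TR samples 1, 2 or 3 or NR sample 2 (0.0568 to 0.209). Psmg3 also missed the threshold in DESeq2 (adjusted p = 0.0814) and limma (0.0562), and Psmg1 in DESeq2 (0.0745). With the length offset, Psmg4 stood at 0.16 (edgeR adjusted p = 0.475).

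Of the activators, Psme1 fell in TR neurons while its partner Psme2, with which it forms the activator ring induced by interferon, did not pass. Psme1 (chr14:55578123-55581529, plus strand) measured 61.4, 62.2, 68.1 and 81.0 CPM in TR and 108, 116 and 115 CPM in NR. The groups were well apart, and the log2 fold change was -0.67 ± 0.111 with or without the GC offset (edgeR adjusted p = 0.000235, the smallest of all members). Psme2, which shares near-identical sequence with Psme2b, measured 37.5, 35.5, 32.6 and 39.8 CPM in TR and 35.1, 36.3 and 40.1 CPM in NR, with overlap (0.03, adjusted p = 0.913). The count ratio of Psme1 to Psme2 was 1.88 ± 0.22 (SD, n = 4) in TR and 3.06 ± 0.162 (SD, n = 3) in NR, and the difference between the fold changes was not tested. Psme3, the nuclear activator, measured 118, 109, 109 and 115 CPM in TR and 124, 131 and 136 CPM in NR (-0.15, adjusted p = 0.264). Psme4, a large activator of another family, measured 76.4, 66.9, 85.8 and 78.5 CPM in TR and 87.0, 106 and 85.3 CPM in NR (-0.21, adjusted p = 0.185). Psme3 did not overlap by CPM but did after TMM scaling, and Psme4 overlapped on both scales.

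**Figure D2:**
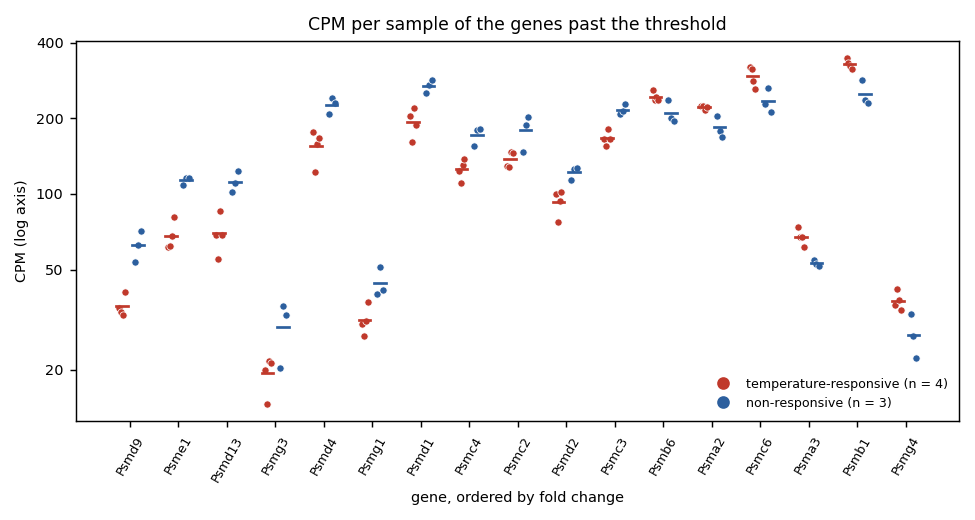
CPM (log axis) of the 17 proteasome genes past the threshold in each of the 7 samples, ordered by fold change. Psme1, Psmd9 and Psmd13 show a clear gap between the groups, whereas Psmg3, Psmb6 and Psmc6 overlap.

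The groups of subunits thus did not move together, which can be seen in their summed levels. The alpha ring summed to 1147, 1130, 1125 and 1112 CPM in TR and 1083, 1053 and 988.6 CPM in NR, with all TR samples higher. The beta ring summed to 1138, 1056, 1121 and 1100 CPM in TR and 1143, 1037 and 1012 CPM in NR, with overlap. The non-ATPase base summed to 479.1, 360.4, 470.1 and 456.9 CPM in TR and 574.4, 637.6 and 640.2 CPM in NR, with all TR samples lower. The sums of both kinds of chaperone and of the activators were also lower in every TR sample, with and without TMM scaling. For the chaperones of the core the groups nearly touched, at 147.5 CPM in TR sample 4 and 148.1 CPM in NR sample 1. The ATPase ring (1158 to 1247 CPM in TR, 1256 to 1334 in NR) and the lid (1069 to 1163 in TR, 1182 to 1250 in NR) were lower in every TR sample by CPM but overlapped after TMM scaling. The same held for the sum of all members, at 5702 ± 198 CPM (SD, n = 4) in TR and 6114 ± 100.2 CPM (SD, n = 3) in NR.

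**Figure D3:**
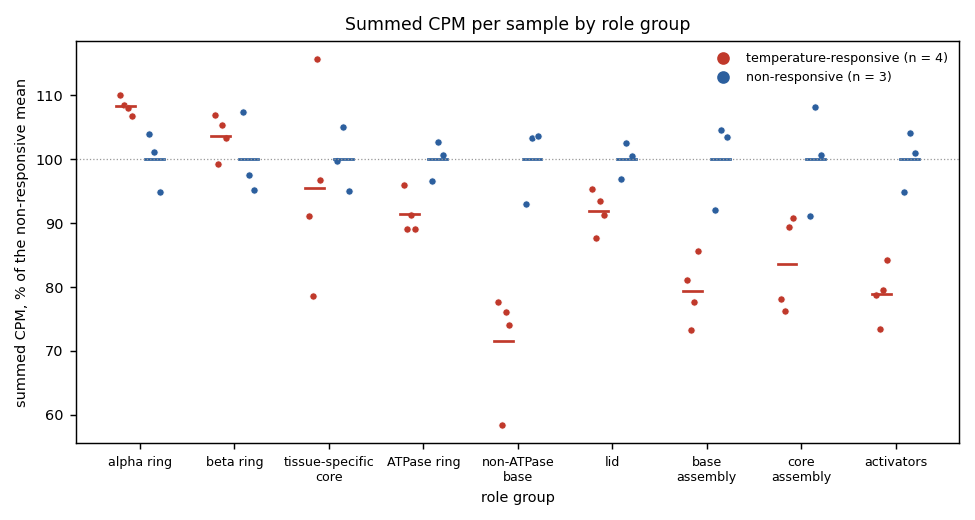
Summed CPM of each role group in each sample, as a percentage of the NR mean (dotted line at 100). All TR samples lie above the NR samples in the alpha ring and below them in the non-ATPase base, and the groups overlap in the beta ring.

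A ratio within a sample does not depend on its scaling. The summed counts of both core rings over those of the regulatory particle (ATPase ring, non-ATPase base and lid) were 0.791, 0.844, 0.803 and 0.811 in TR and 0.739, 0.649 and 0.631 in NR. Every TR sample was higher, with means of 0.812 ± 0.0229 (SD, n = 4) and 0.673 ± 0.0581 (SD, n = 3). The groups also stayed apart against each piece alone, at 1.88 ± 0.033 and 1.62 ± 0.131 for core over ATPase ring, 5.11 ± 0.635 and 3.43 ± 0.396 for core over non-ATPase base, and 1.99 ± 0.036 and 1.73 ± 0.135 for core over lid. The ratio was assembled after the values of its parts were known and was given no test. Over the 7 samples the core to regulatory ratio ranked in the same order as the number of genes detected. That number ran from 17818 in NR sample 3 (ratio 0.631) to 21177 in TR sample 2 (0.844). The part of that number, and of GC content, in the ratio was not tested. The ratio is one of transcripts and holds no measurement of assembled particles.

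Base composition moved with these values. Over the 45 tested members, Spearman's rho between log2 fold change and the GC content of the transcripts was -0.30, and over 14293 genes it was -0.36, with all genes measured in the same 7 libraries. The median GC content was 44.2% in the 6 members that were higher (range 37.0% to 55.8%) and 52.7% in the 11 that were lower (range 46.9% to 55.8%), against 51.0% over the tested members. With a smooth offset for GC content, 3 of the 6 higher calls remained (Psmb1, Psmb6 and Psmg4) and 9 of the 11 lower ones, with Psmc3 and Psmg3 lost. Under that offset Psmb7, Psmd5, Psme4 and Psmg2 passed as lower as well, rho over the members was 0.12, and the medians were -0.01 in the alpha ring, 0.03 in the beta ring, -0.19 in the ATPase ring, -0.43 in the non-ATPase base and -0.12 in the lid. The medians of the ATPase ring, the non-ATPase base and the lid lay below those of both core rings under the offset, whereas without it the median of the beta ring (-0.05) was level with that of the lid (-0.05), and the positive median of the alpha ring was not kept. This order was not kept with the length offset. The medians there were 0.25 in the alpha ring, -0.20 in the beta ring, -0.11 in the ATPase ring, -0.39 in the non-ATPase base and 0.03 in the lid. With genes detected as covariate, the beta ring (-0.02) lay just below the lid (-0.01).

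**Figure D4:**
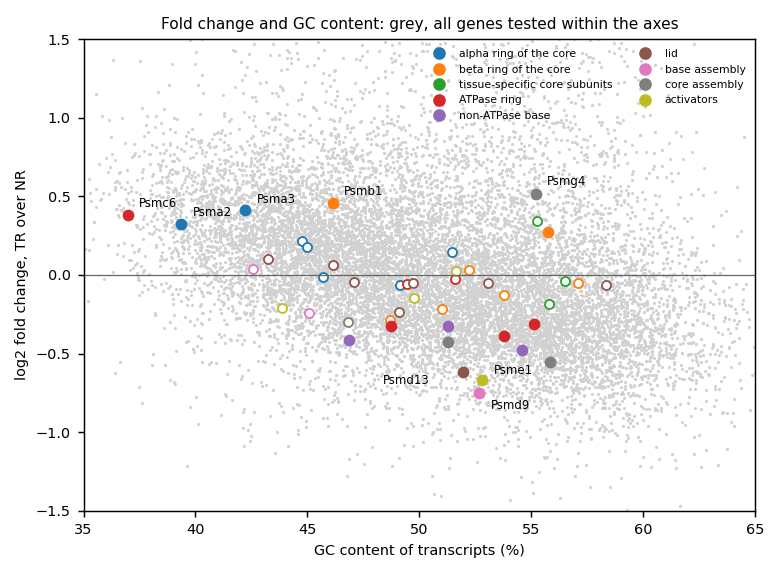
Log2 fold change (TR over NR) against the GC content of each gene's transcripts; coloured points are proteasome genes by role (filled when past the threshold), grey points all tested genes within the axes. Genes of low GC content lie higher on average, with Psmc6 (37.0%) the lowest in GC among the filled points.

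Levels were compared between genes per kilobase of transcript, using the median transcript length in GENCODE M21. Subunits of a ring are present in equal numbers in the particle, but their transcripts were not. Of the core, Psmb6 stood highest at 288 CPM per kb over all samples, followed by Psma1 at 229 and by Psma6 and Psma7 at 222 each. The 5 core genes that have near-identical copies in the annotation (Psma3, Psma4, Psma5, Psmb3 and Psmb5) had a median of 33.1 CPM per kb (27.4 to 94.96), and the other 9 had a median of 182 (70.4 to 288). Reads that match several copies are commonly dropped in counting, so the low levels of these genes are uncertain. The regulatory particle ranged from 29.9 CPM per kb in Psmd11 to 222 in Psmc5, with a median of 108. Psmd11 has 2 near-identical annotated copies, and Psmc1 and Psmd2 have such copies as well, so their levels are also uncertain. The immunosubunits stood at 85.7 CPM per kb for Psmb10, 9.93 for Psmb8 and 2.96 for Psmb9, and Psmb10 was thus far above the others of its kind.

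**Figure D5:**
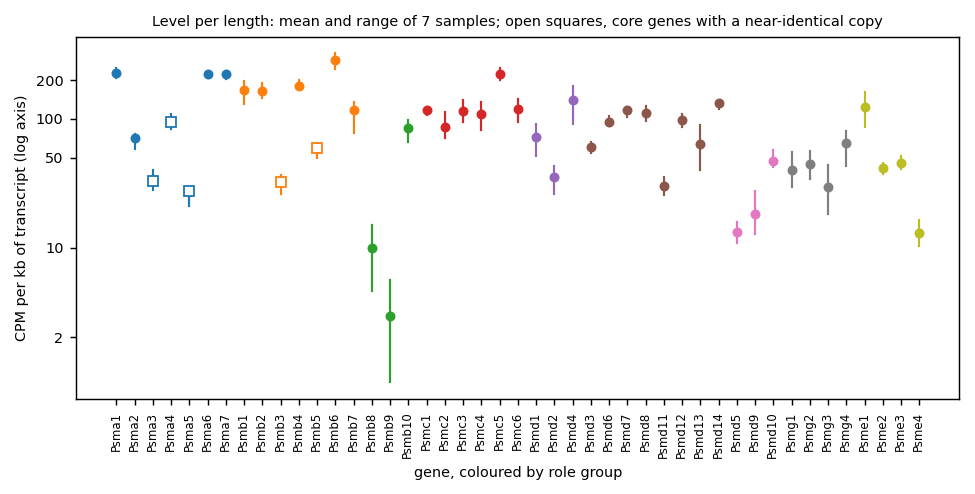
Mean level of each tested proteasome gene in CPM per kb of transcript (log axis), with the range of the 7 samples as bars, coloured by role; open squares mark core genes with a near-identical copy. The open squares lie between 27.4 and 94.96, mostly below the other core genes.

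Genes that work with the proteasome were taken from lists. Of 20 tested partners of the particle, 8 were higher in TR neurons and 3 lower, against 15.1% and 14.9% of all genes tested. With the GC offset 2 were higher and 5 lower, against 1299 and 2148 of the 14407 genes. Those that were higher included Ubqln2 (log2 fold change 0.84), a shuttle for ubiquitinated proteins, Shfm1 (0.78), which encodes the small lid subunit Sem1, Uchl5 (0.47), a deubiquitinase of the base, Zfand5 (0.47), an activator, and Pomp (0.36), the chaperone of core maturation. Akirin2 (0.33), Txnl1 (0.33) and Ube3c (0.26) were also higher. Those that were lower included Psmf1 (-0.59), an inhibitor of the core, and Ufd1l (-0.48), a partner of the unfoldase Vcp. Of the lid, Shfm1 and Psmd13 therefore passed in opposite directions. Adrm1, a subunit of the base outside the name rule, stood at -0.26 and did not pass (edgeR adjusted p = 0.344). Of 8 regulators of proteasome genes none passed in edgeR, DESeq2 or limma, with 1 of 8 below 0.05 unadjusted in edgeR, and Nfe2l1 stood at 0.17 (edgeR adjusted p = 0.162). Among the genes of ubiquitin and its activation, the activating enzyme Uba6 was at 0.52 (edgeR adjusted p = 0.00513), whereas the main activating enzyme Uba1 was at -0.38 (0.00815). Ubb had 7 to 9 counts per sample and was not tested. Class I antigen presentation uses peptides cut by the proteasome. Of 10 of its genes, 2 passed as higher and 0 as lower, against 15.1% and 14.9% of all genes tested. The 2 were B2m at 0.62 (edgeR adjusted p = 0.000419) and Nlrc5 at 2.15 (0.00266), the latter on only 3 to 26 counts. The TR samples also held more endothelial marker RNA in sum, and its part in the values of B2m and Nlrc5 was not tested.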

How the data were processed

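Patch-seq libraries (SMART-seq V4, Nextera XT) of 4 temperature-responsive and 3 non-responsive samples, grouped by their labels, were analysed. The authors aligned reads to mm10 with STAR 2.6.0, discarded PCR duplicates (RmDup) and deposited raw read counts per gene symbol from HTSeq 0.9.1. Without molecular identifiers, this step can discard separate molecules of abundant genes too. The annotation, strand setting and overlap rule are not given in the sources used here, so genes that overlap or have near-identical copies (at least 95% identity over at least 200 bases) are uncertain. Besides Psmd9 and Psmd13, the called genes Psmd1 (7.6%), Psmc3 (8.2%), Psmg3 (9.7%) and Psme1 (0.63%) share exonic bases with other annotated genes. Psmb7, which missed the threshold, shares 11.8%.

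edgeR 4.0.16 was run on genes that reached 10 counts in 3 or more samples (robust quasi-likelihood test, TMM, two-sided, R 4.3.3). DESeq2 1.42.0, limma 3.58.1 (voom), other scalings and filters, drawing down to the lowest total, covariates and leaving out each sample were alternatives. Offsets for GC content and length used mgcv 1.9.3. GENCODE M21 (mm10) gave coordinates, GC content and lengths, and in it 98.4% of symbols and all 48 members matched. A floor of 3 counts lay between 0.585 and 1.57 CPM and covers counting error only. On simulated data with 200 genes changed by 1 on the log2 scale, edgeR recovered 74.7% of the 194 changed genes that entered the test (14180 genes), each with the right sign, and 2.69% of its calls were false. Samples of a group differed by more than counting noise (chi-square per degree of freedom 1.94 to 5.36).

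The members and lists were chosen with earlier results of these data known. Values per sample are given for members past the threshold, the extremes of each role group, the immunosubunits with their counterparts, and Psme1 to Psme4. Of the list of partners, Paaf1 is not analysed here, and some genes of the lists are not reported here.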

Additional observations from a re-analysis of the deposited data

How the results depend on the processing

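The members' median log2 fold change, -0.06, was 0.0088 with upper quartile scaling, -0.12 without scaling factors, -0.15 with all genes of at least 1 count, -0.13 under the GC offset, and -0.13 when the replicate block was added to it. The median over all genes, 0.007 in the main fit, was 0.074, -0.052, -0.085, -0.057 and -0.056 in those fits. The members' median minus that of all genes was -0.064 in the main fit. It was -0.065, -0.066, -0.061, -0.074 and -0.071 in those fits, -0.024 with genes detected as covariate and 0.0034 with the length offset. Members higher numbered 3 with all genes of at least 1 count, 3 with the GC offset, 3 with the length offset and 3 where the GC offset and the replicate block were combined, and members lower numbered 7 with upper quartile scaling. With the number of genes detected as covariate, 1 gene passed, 0 members were higher and 0 lower (5 of 45 below 0.05 unadjusted, edgeR). Leaving out each sample gave 2620 to 4583 genes past the threshold, 1 to 6 members higher, 7 to 11 lower and medians of -0.10 to -0.04. DESeq2 called 6 members higher and 9 lower, and limma 6 and 10. The replicate number as a block gave 4124 genes and 7 members higher and 11 lower, with 16 of the 17 calls kept. Deviations from the group means of same-numbered samples correlated at -0.129, -0.0635 and 0.0322, and those of other pairs at -0.17 to 0.224. With so few samples these values cannot decide whether same-numbered samples share a mouse or a batch, which the labels do not give. The replicate block with the GC offset gave 2756 genes.

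Values that changed sign, among them the called Psma2 and Psmc6, were Psma5 0.0034, Psmb5 0.013 and Psmb10 0.026 with upper quartile scaling; Psmd10 -0.0197 and Psme2 -0.0327 without scaling factors, and -0.051 and -0.0653 with all genes; Psmb8 0.34 with genes detected; Psma2 -0.0246, Psmb5 0.0438, Psmb10 0.0469, Psmc6 -0.0509, Psmd14 -0.13 and Psmd10 -0.21 with the GC offset; Psma5 0.0177, Psmb10 0.047 and Psme2 -0.0308 with the length offset; Psmb8 0.11 and Psme2 -0.0097 with the replicate block; and Psma2 -0.0319, Psmb5 0.0323, Psmb8 0.21, Psmb10 0.0449, Psmc6 -0.0066, Psmd14 -0.12, Psmd10 -0.20 and Psme2 -0.0166 with the replicate block and GC offset. Over the fits that left out a sample, Psma5 -0.11 to 0.0089, Psme2 -0.00995 to 0.091, Psmb5 -0.0897 to 0.0051, Psmb10 -0.12 to 0.0484, Psmb9 -0.0528 to 0.62, Psmb8 -0.38 to 0.13 and Psmd10 -0.0311 to 0.19 included values of either sign. Of all values recomputed for 28 named members, 436 kept direction and side of the threshold, 75 lost their call, 9 gained one and 38 changed sign. The cause of these changes was not tested. Totals of 1914497 to 5125280 counts limit genes such as Psmb9, and no value met the criterion for a sample far from the others.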
